A study of Mus musculus with 3 samples.

Results

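Neutrophils were examined in kidney cells of mice treated with folic acid (FA), which injures the tubules and leads to fibrosis. The study asked what the loss of Aoah, the gene of acyloxyacyl hydrolase, does in this injury. The groups used here were the Aoah-/- mice 2 and 3 and the WT mouse 3, numbered as on their labels, which give an age of 6 to 8 weeks and a time of 14 days after FA. Both groups received FA, no vehicle-treated mouse is analysed here, and the labels name no cell type to which the deletion is limited. Each mouse gave 1 droplet scRNA-seq library of the whole kidney, which was perfused and digested with collagenase and from which erythrocytes were lysed. A barcode was kept with at least 1672 UMIs (unique molecular identifiers, 1 per captured transcript), at least 200 genes and at most 50% of UMIs from the 13 mitochondrial genes. A kept barcode was taken as a neutrophil with 10 or more UMIs of both S100a8 and S100a9, at least 1 UMI of Csf3r, Retnlg, Cxcr2 or G0s2, at most 2 UMIs of C1qa, Cd3g, Cd79a and Emcn together, and at most 2 of Lrp2, Slc34a1 and Slc12a1 together. This rule found 634 neutrophils among 48404 kept barcodes of 73281 deposited. Of these, 204 came from Aoah-/- mouse 2, 340 from Aoah-/- mouse 3 and 90 from the WT mouse. The cells were thus chosen by their counts of these genes, whose levels are not findings. Where 3 values stand together, the first is Aoah-/- mouse 2, the second is Aoah-/- mouse 3 and the last is WT.

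Neutrophils are short-lived granulocytes that leave the bone marrow full of preformed granules and enter injured tissue along gradients of chemokines, leukotrienes, complement fragments and bacterial products. Azurophil, specific and gelatinase granule proteins are transcribed one after another while the cell matures in the marrow, and most of these transcripts are gone by the time it circulates. In tissue, neutrophils transcribe cytokines and chemokines instead. Acyloxyacyl hydrolase removes acyl chains from bacterial lipopolysaccharide (LPS), which neutrophils sense through Cd14, Tlr4 and Ly96.

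The targeted gene was read first. Aoah (chr13:20794113-21036617, mm10, plus strand) had 0 UMIs among 530248 in the neutrophils of Aoah-/- mouse 2, 0 among 891105 in Aoah-/- mouse 3 and 3 among 261067 in the WT mouse. The counts of 0 have exact Poisson 95% upper limits of 6.96 and 4.14 CPM (UMIs per 1000000 UMIs), and the 3 WT UMIs give 11.5 CPM with an exact Poisson 95% interval of 2.37 to 33.6, so no fold is given within neutrophils. Over all kept barcodes Aoah was at 6.78 and 6.19 CPM in the Aoah-/- mice and 18.3 CPM in the WT mouse. The level was lower in both Aoah-/- libraries but not 0, and which part of the gene is deleted is not given in the sources used here.

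Neutrophils were shallow, and their median depths above the floor of 1672 UMIs were close between libraries. No cell under that floor could enter, so this closeness is partly set by the rule. The median neutrophil held 2032.5, 2159.5 and 2264.5 UMIs and 822, 852 and 820.5 genes in the 3 libraries, against 5562, 3727 and 6450 UMIs in the other kept barcodes. Mitochondrial genes gave a median of 5.97%, 5.87% and 9.59% of neutrophil UMIs, so the WT cells stood higher. The lowest UMI total among deposited barcodes was 500, 1672 and 500, so cells were not called alike in the 3 libraries. One WT neutrophil barcode held 25683 UMIs, 9.84% of all WT neutrophil UMIs. It carried 43 S100a8 and 54 S100a9 UMIs beside 214 of Fxyd2, 183 of Atp6v1g3 and 34 of Slc26a4, which are genes of tubule and collecting duct cells, so it held transcripts of more than 1 cell type. Another WT barcode with 4666 UMIs carried 1290 of the 1370 WT neutrophil UMIs of Hbb-bs, a hemoglobin gene. For list genes past 2-fold, and for sums that rest on few barcodes, it is said below what they are without the large barcodes, which are the members over 4065, 4319 and 4529 UMIs, 2 times the median of each library. This leaves 186, 311 and 82 cells.

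Genes that the rule did not use were those of neutrophils. Of 16 further neutrophil markers, 14 reached 50 CPM, and their summed level was 16183, 17023 and 16858 CPM in the 3 libraries. Hdc, the histamine-forming decarboxylase, was at 1228, 1353 and 1279 CPM, against 10.8, 9.97 and 4.38 CPM in all other kept barcodes. Mmp9, gelatinase B, was at 1047, 1109 and 1337 CPM, against 6.22, 8.64 and 3.01 CPM in all other kept barcodes. The decoy receptor Il1r2, which captures IL-1, was at 598, 749 and 693 CPM, against 5.93, 9.83 and 3.75 CPM in all other kept barcodes. All 3 libraries lay close together for these genes. Ly6g, the usual surface marker of mouse neutrophils, was low, with 11.3, 26.9 and 15.3 CPM, where 3 counts equal 5.66, 3.37 and 11.5 CPM.

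Defining genes of eosinophils, basophils and mast cells were mostly at 0, while genes of monocytes and macrophages were present. The eosinophil genes Epx, Prg2, Il5ra and Ear1 and 8 of 9 basophil and mast cell genes, Mcpt8, Cpa3 and Fcer1a among them, had 0 UMIs in all 3 libraries. The summed eosinophil list stood at 81.1, 58.4 and 65.1 CPM, and Siglecf, its most abundant gene, gave most of it. The T lymphocyte list summed to 33.9, 52.7 and 42.1 CPM, the B lymphocyte list to 18.9, 8.98 and 7.66 CPM, the dendritic list to 52.8, 12.3 and 49.8 CPM, the natural killer list to 9.43, 19.1 and 0 CPM and the platelet list to 5.66, 5.61 and 3.83 CPM. The macrophage list stood at 907, 1187 and 1134 CPM, led by Apoe with 413, 626 and 682 CPM, while C1qa, which the rule limits, was at 26.4, 31.4 and 11.5 CPM. The monocyte list stood at 1005, 896 and 973 CPM, led by Plac8, and its defining genes Ly6c2 and Ccr2 were at 102, 86.4 and 103 CPM and at 81.1, 30.3 and 19.2 CPM. Ccr2 was past 2-fold upwards (log2 ratio 1.49), but without the large barcodes it was at 0, 9.94 and 5.13 CPM and no longer passed. Endothelial genes summed to 66, 135 and 19.2 CPM. Several of these sums rested on the largest barcodes. Without the large barcodes the monocyte list was at 378, 369 and 657 CPM (log2 ratio -0.81, against -0.03 with them), the macrophage list at 814, 980.3 and 837 CPM, the dendritic list at 10.1, 5.68 and 5.13 CPM and the endothelial list at 71, 34.1 and 10.3 CPM.

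Tubule transcripts were present at a low level. The 20 genes of a tubule list gave 0.725%, 0.631% and 0.642% of neutrophil UMIs, against 0.345%, 0.48% and 0.4% of B cell UMIs in the same libraries. Kap, an androgen-regulated gene of the proximal tubule and the most abundant of the list, was at 1556, 1579 and 2225 CPM. After every cell was thinned to 1672 UMIs, 90.2%, 89.4% and 83.3% of neutrophils and 73.8%, 85.2% and 86.6% of B cells carried a Kap UMI. Spp1 (osteopontin), Umod (uromodulin), Gatm and Keg1 of this list were at least 2-fold higher in the mean of the Aoah-/- mice than in the WT mouse, with both Aoah-/- mice above it, as were 4.22% of the 2701 genes tested. Of the 15 tubule genes tested, 11 lay above WT in both Aoah-/- mice, against 42.9% of all genes tested, with a median log2 ratio of 0.48. The list summed to 7248, 6311 and 6416 CPM, and without the large barcodes to 6247, 6117 and 4662 CPM (log2 ratio 0.41). Spp1, at 474, 612 and 221 CPM without the large barcodes, and Umod still passed then, while Gatm, at 167, 155 and 82.1 CPM, and Keg1, at 112, 65.4 and 46.2 CPM, no longer did. The barcode with 25683 UMIs held 64.6% of the WT Spp1 UMIs. The shares of cells with Spp1 had the same order in neutrophils and tubule cells. A Spp1 UMI was found in 39.2%, 41.2% and 18.9% of neutrophils and in 54.2%, 64.7% and 30.2% of tubule cells. The part of free tubule RNA in the neutrophil values of these genes was not tested.

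The DNA before 4 genes is shown, those of the pair that chose the cells and of the most abundant pair of the cytokine and chemokine list. S100a8 and S100a9 form calprotectin, which binds zinc and calcium, and were used by the rule. Il1b and Cxcl2, which encode the cytokine IL-1β and the ligand of CXCR2, were not used by it. The bases are from RefSeq (GRCm38.p6, the same assembly as mm10), 5′ to 3′ on the strand of the gene, and end where the gene begins in RefSeq or GENCODE, whichever is farther upstream. Capitals mark matches in the 250 bases before the RefSeq start, on either strand, to TTGCNNAA, a pattern of C/EBP factors, or to GGGANNNNC, a loose pattern of NF-kB.
S100a8, chr3:90668821-90668977, plus strand: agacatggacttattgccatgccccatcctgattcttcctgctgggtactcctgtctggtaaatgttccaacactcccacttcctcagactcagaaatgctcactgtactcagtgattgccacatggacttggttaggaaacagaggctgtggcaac
S100a9, chr3:90695722-90695971, minus strand: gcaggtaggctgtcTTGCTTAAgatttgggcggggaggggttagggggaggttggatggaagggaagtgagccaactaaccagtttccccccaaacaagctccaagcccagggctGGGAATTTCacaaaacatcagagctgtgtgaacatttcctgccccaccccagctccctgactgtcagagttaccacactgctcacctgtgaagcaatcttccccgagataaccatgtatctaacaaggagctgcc
Il1b, chr2:129371140-129371389, minus strand: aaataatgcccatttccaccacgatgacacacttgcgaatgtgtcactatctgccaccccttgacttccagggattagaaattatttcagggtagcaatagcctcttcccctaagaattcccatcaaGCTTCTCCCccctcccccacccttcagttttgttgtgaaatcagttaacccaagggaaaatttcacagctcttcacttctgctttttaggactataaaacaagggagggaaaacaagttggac
Cxcl2, chr5:90903649-90903870, plus strand: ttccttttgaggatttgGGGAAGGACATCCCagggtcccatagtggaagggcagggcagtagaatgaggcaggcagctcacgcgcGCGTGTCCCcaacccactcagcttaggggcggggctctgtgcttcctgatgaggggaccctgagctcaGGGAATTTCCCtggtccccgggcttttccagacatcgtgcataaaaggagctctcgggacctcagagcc
The S100a9 stretch held 1 match to TTGCNNAA, 236 to 229 bases before the RefSeq start, and the other genes held none. GGGANNNNC had a match before all 4 genes, in S100a8 86 to 78 bases before the RefSeq start, past the end of the printed stretch, in S100a9 135 to 127 bases before it, in Il1b 123 to 115 bases before it, and in Cxcl2 at 5 partly overlapping places. For comparison, 9.56% of 32851 mouse promoters of the same length held TTGCNNAA and 49.0% held GGGANNNNC, so that a match to the latter sets these genes little apart. All patterns were chosen with the sequences at hand, and 3 forms of the NF-kB pattern were searched. A longer form, searched first, is not given here. A narrower form, GGGANTTTC, was picked from the Cxcl2 sequence itself, and it matched S100a9 and Cxcl2 and 0.941% of all promoters, a share that its choice makes unfit for comparison with these genes.

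Levels of these 4 genes were high in all 3 libraries. S100a9 was at 48794 and 50688 CPM in Aoah-/- mice 2 and 3 and 38316 CPM in the WT mouse, and S100a8 at 21545 and 23219.5 CPM in Aoah-/- mice 2 and 3 and 19179 CPM in the WT mouse. They chose the members, so their levels are a description only. Il1b was at 10652 and 11489 CPM in Aoah-/- mice 2 and 3 and 11028 CPM in the WT mouse, with exact Poisson 95% intervals of 10376 to 10933, 11268 to 11714 and 10629 to 11438 CPM that overlap between the WT mouse and both Aoah-/- mice. Cxcl2 was at 6714 and 6747 CPM in Aoah-/- mice 2 and 3 and 7167 CPM in the WT mouse. Neither Il1b nor Cxcl2 separated the genotypes by more than 2-fold, and their log2 ratios of the Aoah-/- mean over WT were 0.01 and -0.09. A UMI tags the 3′ end of 1 molecule, so these levels are shares of captured molecules and need no division by gene length. The most abundant row of all was Gm42418, which overlaps ribosomal RNA, and is not described further.

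**Figure D1:**
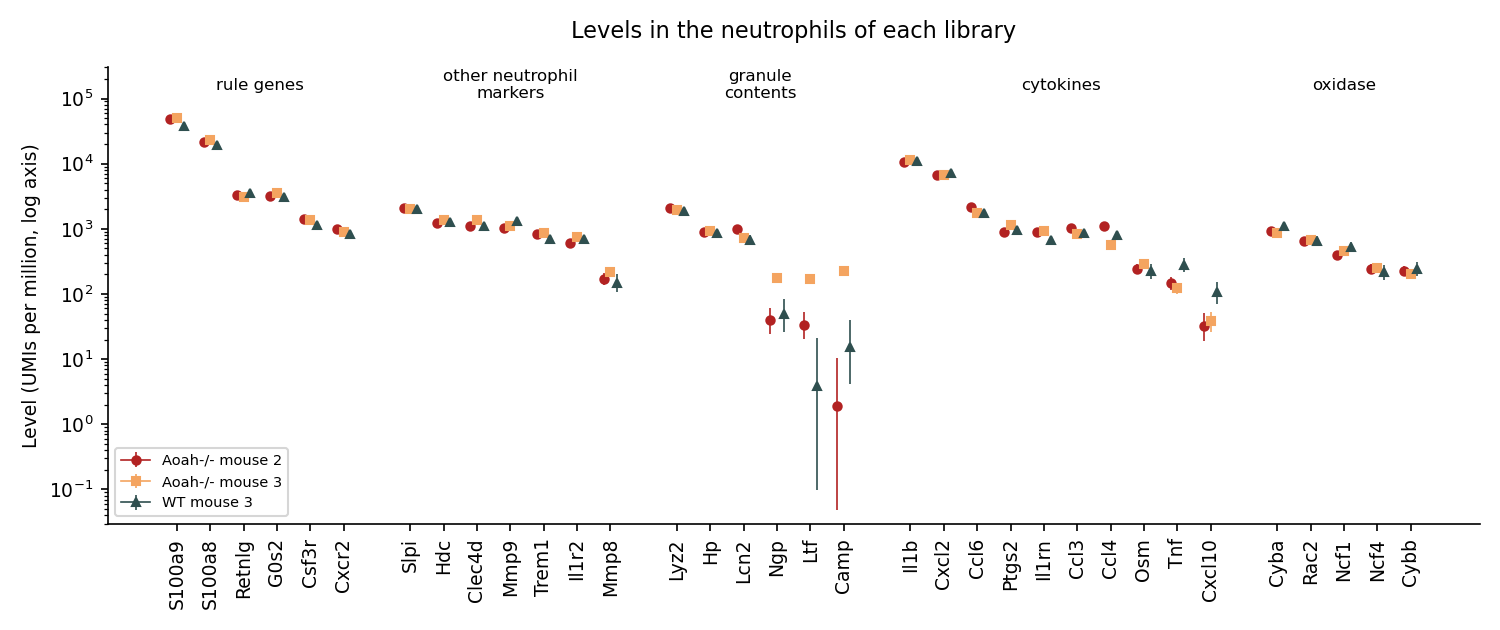
Level of selected genes in the neutrophils of each library, in CPM on a log axis, with exact Poisson 95% intervals as bars (counting error only). The 3 libraries lie close together for the rule genes, markers, oxidase and most cytokines, while Ltf, Camp and Ngp stand highest in Aoah-/- mouse 3 and Tnf and Cxcl10 stand highest in the WT mouse.

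The share of neutrophils differed between the libraries. Neutrophils made up 1.32% (204 of 15441, Clopper-Pearson 95% interval 1.15 to 1.51) and 1.73% (340 of 19692, 1.55 to 1.92) of kept barcodes in Aoah-/- mice 2 and 3, and 0.678% (90 of 13271, 0.546 to 0.833) in the WT mouse. Both Aoah-/- values lay above the WT value and the counting intervals did not overlap. The Aoah-/- mean was 0.846 percentage points above WT, with an SD of 0.287 between the 2 Aoah-/- mice, and the ratio to WT was 1.95 and 2.55 in mice 2 and 3. No test across mice was made, since the spread between WT mice is unknown with 1 of them. Among barcodes with a UMI of Ptprc (CD45, the pan-leukocyte phosphatase), the shares were 3.06% (176 of 5760), 4.29% (295 of 6877) and 2.61% (84 of 3215), and the interval of Aoah-/- mouse 2, 2.63 to 3.53, overlapped that of the WT mouse, 2.09 to 3.22. Shares of other leukocytes also differed between the libraries. Ly6c2 monocytes made up 2.49%, 2.59% and 1.41% of kept barcodes, C1q macrophages 10.1%, 5.36% and 4.84%, T cells 7.29%, 7.85% and 6.44%, and B cells 5.46%, 2.26% and 3.71%.

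**Figure D2:**
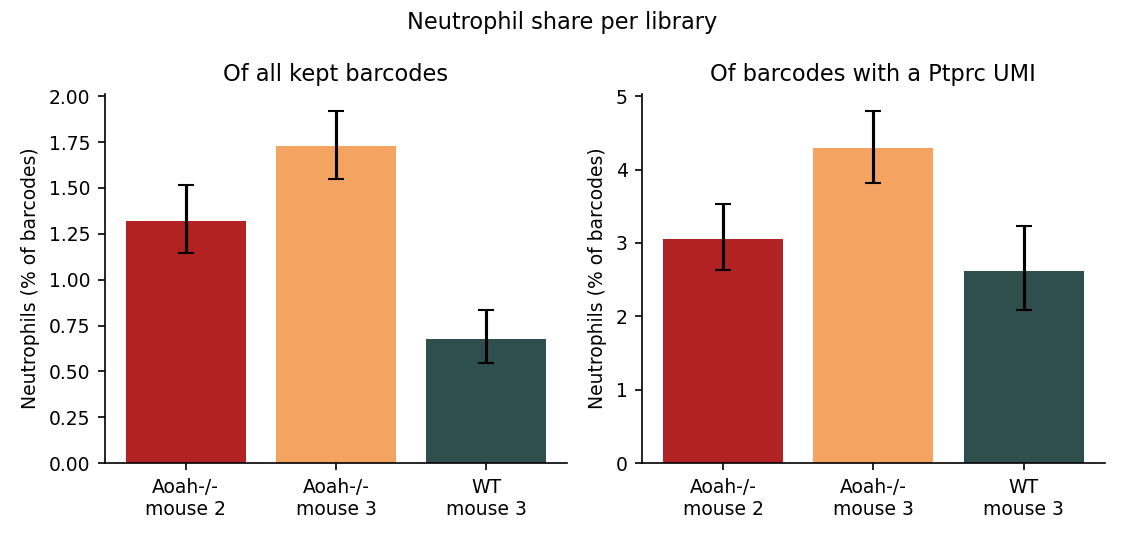
Neutrophils as a percent of all kept barcodes (left) and of barcodes with a Ptprc UMI (right) in each library, with exact Clopper-Pearson 95% intervals that cover counting error only. The WT bar, 0.678%, is the lowest on the left, and on the right the intervals of Aoah-/- mouse 2 and the WT mouse overlap.

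The limits of the rule bear on these shares. The limits on genes of other lineages left out 75, 104 and 12 barcodes that otherwise passed, and without them the shares were 1.81%, 2.25% and 0.769%. With no UMI of those genes allowed they were 0.544%, 0.838% and 0.369%. A floor of 3000 UMIs lowered them to 0.245%, 0.475% and 0.182%, since most neutrophils held fewer UMIs. Just inside the limit of 10 UMIs, 21, 40 and 7 neutrophils had 10 to 14 UMIs of the lower of S100a8 and S100a9. Just outside it, 32, 52 and 9 barcodes had 5 to 9 and met the rest of the rule. Il1b was at 9066, 10565 and 15714 CPM in the barcodes just inside and at 10524, 10904 and 11991 CPM in those just outside.

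Receptors that bring neutrophils into tissue were expressed at even levels. Cxcr2, the receptor for Cxcl1 and Cxcl2, was at 977, 903 and 831 CPM in the 3 libraries, and Csf3r, the receptor for G-CSF, at 1431, 1353 and 1126 CPM, both used by the rule. Among receptors that it did not use, Ccrl2, which binds chemerin, was at 1099, 1377 and 1570.5 CPM, Ccr1 at 719, 799 and 769.9 CPM, Ptafr, the receptor for platelet-activating factor, at 485, 522 and 471 CPM, and C5ar1, the receptor for complement C5a, at 356, 361 and 387 CPM. Cxcr4, which holds neutrophils in the marrow and marks aged ones, was at 599.7, 600.4 and 651 CPM. At 1672 UMIs per cell a Cxcr4 UMI was found in 58.3%, 56.2% and 67.8% of neutrophils. In the chemoattractant receptor list, 0 of 9 genes with 50 CPM or more passed the 2-fold rule upwards and 0 downwards, with a median log2 ratio of -0.02. The rule asks that the Aoah-/- mean lie at least 2-fold from WT with both Aoah-/- mice on that side, and is a count of size with no test. Over all 2701 genes with 50 CPM or more, 4.22% passed upwards and 2.33% downwards.

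Adhesion and Fc receptor genes were led by Fcer1g, the shared signalling chain of Fc receptors, at 2197, 2114 and 2084 CPM, and by Cd44, a hyaluronan receptor, at 1069, 1054 and 869.5 CPM. The integrin chains Itgam, Itgal and Itgb2 were at 369.6, 359 and 318 CPM, 266, 274 and 234 CPM and 343, 384 and 391 CPM. In this list 1 of 12 genes with 50 CPM or more passed the 2-fold rule upwards and 0 downwards, with a median log2 ratio of 0.17. The gene that passed was Itgax (CD11c), with 77.3, 78.6 and 34.5 CPM.

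Granule genes of the earliest stage were at or near 0, and those of the later stages were expressed unevenly. Mpo, Elane, Ctsg and Bpi, which encode proteins of azurophil granules made earliest, had 0 UMIs in all 3 libraries, and the whole azurophil list stood at 17, 3.37 and 23 CPM. The specific granule list summed to 5167, 5213 and 4631 CPM and the gelatinase granule list to 4432, 4474 and 4416 CPM, so the former was the higher in each library. Without the large barcodes the sums were 4433, 4119.9 and 4539 CPM and 5337, 4911 and 5365 CPM, and the order turned. Ltf, Camp and Ngp, contents of specific granules, held 40, 513 and 18 UMIs together. A single cell of Aoah-/- mouse 3 held 358 of its 513 and the 5 richest cells 96.7%, and without the 5 richest cells of each library the sums were 13, 17 and 0 UMIs. Ltf passed the 2-fold rule with 33.9, 168 and 3.83 CPM, while without the large barcodes Ltf was at 45.6, 22.7 and 5.13 CPM and Camp at 2.53, 1.42 and 20.5 CPM. Gelatinase granule genes and other contents were expressed, with Mmp9 as above, Mmp8 (neutrophil collagenase) at 172, 215 and 149 CPM, Slpi, a protease inhibitor, at 2078, 2005 and 1999 CPM, Lcn2 (NGAL), which binds bacterial siderophores, at 983, 731 and 686 CPM, and Hp (haptoglobin) at 898, 939 and 866 CPM. Lcn2 was at 834, 683 and 919 CPM without the large barcodes, and its log2 ratio turned from 0.32 to -0.28. In the gelatinase granule list 0 of 9 genes with 50 CPM or more passed the 2-fold rule upwards and 0 downwards, with a median log2 ratio of 0.20. In the specific granule list 1 of 9 genes with 50 CPM or more passed the 2-fold rule upwards and 0 downwards, with a median log2 ratio of 0.31. The 10 cell division genes summed to 868, 922 and 705 CPM, and none of the 3 tested passed the 2-fold rule. Of these genes, Mki67 and Top2a were at 11.3, 18 and 0 CPM and 0, 5.61 and 7.66 CPM.

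Genes of effector functions were present. Of the NADPH oxidase, which makes superoxide, Cyba (p22phox) was at 941, 855 and 1099 CPM and Cybb (gp91phox) at 224, 202 and 245 CPM, and neither passed the 2-fold rule. For leukotriene and prostaglandin synthesis, Alox5ap was at 886, 901 and 927 CPM, Alox5 at 60.3, 65.1 and 99.6 CPM and Ptgs2 (COX-2) at 896, 1139 and 965 CPM. A Ptgs2 UMI was found in 55.9%, 57.9% and 53.3% of cells. Padi4, which citrullinates histones in extracellular traps, was near the floor at 30.2, 21.3 and 23 CPM, and Nlrp3, the sensor of an inflammasome, was at 534, 645 and 739 CPM. No gene of the eicosanoid list or of the extracellular trap and pyroptosis list passed the 2-fold rule, among 4 tested in each. In the eicosanoid list 3 lay below WT in both Aoah-/- mice and 0 above, and in the other list 2 below and 2 above. Of 6 oxidase genes tested, 4 lay below in both and 1 above, against 37.7% below and 42.9% above of all genes tested.

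Cytokine and chemokine genes were led by Il1b and Cxcl2, followed by Ccl6 at 2195, 1771 and 1719.9 CPM, Ccl3 at 1041, 838 and 862 CPM, Ccl4 at 1107, 558 and 808 CPM and Il1rn, the antagonist of the IL-1 receptor, at 899.6, 916 and 678 CPM. The 20 genes of the list summed to 25122, 24882 and 24656 CPM, with a log2 ratio of 0.02, and 1 of 17 genes with 50 CPM or more passed the 2-fold rule upwards and 2 downwards, with a median log2 ratio of 0.18. Tnf (chr17:35199381-35202007, minus strand), the gene of tumor necrosis factor, was at 145 and 123 CPM in Aoah-/- mice 2 and 3 and 279.6 CPM in the WT mouse, with intervals of 115 to 181, 101 to 149 and 219 to 352 CPM, and both Aoah-/- mice lay below the WT interval (log2 ratio -1.05 with an SD of 0.16 between the 2 Aoah-/- mice). At equal depth a Tnf UMI was found in 11.8%, 11.5% and 25.6% of neutrophils, with intervals of 7.69 to 17, 8.29 to 15.3 and 16.9 to 35.8, and in 0.642%, 1.29% and 0.131% of tubule cells. Unthinned, the neutrophil shares were 14.2%, 15.9% and 31.1%. Without the large barcodes Tnf was at 179.9, 134 and 334 CPM. Cxcl10, a chemokine induced by interferon, was at 32.1, 38.2 and 107 CPM, carried by 9, 19 and 12 cells. Ccl9, a macrophage chemokine, passed upwards with 71.7, 43.8 and 19.2 CPM, and without the large barcodes it was at 43.1, 29.8 and 10.3 CPM, under the minimum of 50 CPM. A Cxcl2 UMI was found in 79.4%, 79.4% and 90% and an Il1b UMI in 97.5%, 95.6% and 98.9% of neutrophils, against 5.69%, 7.42% and 2.64% for Il1b in B cells.

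Genes of NF-kB feedback, which are induced by NF-kB and damp it, summed to 8466, 9800.2 and 9894 CPM. Nfkbia, the inhibitor IkBα, was at 2265, 2751 and 3497 CPM, so both Aoah-/- mice lay below WT by less than 2-fold. Tnfaip3 (A20) was at 475, 469 and 471 CPM and Ier3 at 1141, 1160.4 and 981 CPM. In this list 1 of 16 genes with 50 CPM or more passed the 2-fold rule upwards and 0 downwards, with a median log2 ratio of 0.10, and the gene that passed was Relb with 37.7, 69.6 and 23 CPM. Of the genes that sense LPS, Cd14 was at 1405, 1626 and 1149 CPM, Tlr4 at 58.5, 56.1 and 53.6 CPM, Myd88, the adaptor of most Toll-like receptors, at 157, 135 and 111 CPM and Casp4, the sensor of LPS in the cytosol, at 126, 131 and 88.1 CPM. None of the 5 LPS genes tested passed the rule, and 4 of the 5 lay above WT in both Aoah-/- mice, as did 42.9% of all genes tested (37.7% lay below in both).

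Interferon-induced genes summed to 6623, 7127 and 7262 CPM without a common direction, and 2 of 16 genes with 50 CPM or more passed the 2-fold rule upwards and 1 downwards, with a median log2 ratio of 0.03. Ifitm2 and Ifitm1, which limit virus entry, were the most abundant, at 2025, 1982 and 2536 CPM and 1675, 1732 and 1471 CPM, and Isg15, a ubiquitin-like protein, was at 505, 690.2 and 666 CPM. Irf7, a transcription factor of the interferon response, and Ifit3 lay higher in both Aoah-/- mice, at 123, 140.3 and 53.6 CPM and 64.1, 55 and 26.8 CPM, but without the large barcodes Ifit3 was at 83.6, 54 and 35.9 CPM and no longer passed. Ifi47, a GTPase induced by interferon gamma, lay lower, at 13.2, 19.1 and 65.1 CPM, and was carried by 5, 15 and 7 cells. A UMI of Isg15 was found in 43.1%, 40.3% and 38.9% of cells, so the shares lay close together. MHC class II genes, which neutrophils hold at low levels, summed to 1724, 1475 and 1007 CPM, and without the large barcodes to 568, 946 and 806 CPM, which moved the log2 ratio from 0.67 to -0.09 and put Aoah-/- mouse 2 below WT. H2-Ab1 passed upwards with 345, 255 and 115 CPM, but without the large barcodes it was at 119, 156 and 103 CPM. Cd74, the invariant chain, was at 629.9, 461 and 287 CPM, and 1 cell of Aoah-/- mouse 2 held 78.1% of that library's neutrophil Cd74 UMIs. Cd74 was at 144, 307 and 252 CPM without the large barcodes, and the log2 ratio turned from 0.92 to -0.16. A Cd74 UMI was found in 17.6%, 25.9% and 20% of neutrophils and in 16.1%, 36% and 10.8% of tubule cells, and the part of free RNA in it was not tested.

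Transcription factors were led by Junb and Cebpb, at 4091, 4474 and 3378 CPM and 3634, 4544 and 3750.0 CPM. Klf2, Mxd1 and Spi1 (PU.1) followed at 1322, 1199.6 and 1352 CPM, 1250.4, 1278 and 1092 CPM and 702, 680.1 and 716 CPM, while Cebpe and Gfi1, which act in the marrow, were at 3.77, 19.1 and 26.8 CPM and 1.89, 0 and 0 CPM. Among immediate early genes, Egr1 was at 964 and 1001 CPM in Aoah-/- mice 2 and 3 and 563 CPM in the WT mouse (log2 ratio 0.80 with an SD of 0.04 between the 2 Aoah-/- mice), with intervals of 882 to 1051, 936 to 1069 and 476 to 662 CPM. The barcode with 25683 UMIs held 25.9% of the WT Egr1 UMIs, and without it Egr1 was at 964, 1001 and 463 CPM (log2 ratio 1.08, past 2-fold). The log2 ratio was 0.89 without the large barcodes. An Egr1 UMI was found in 58.8%, 60.3% and 40% of neutrophils, with intervals of 51.7 to 65.6, 54.9 to 65.5 and 29.8 to 50.9, and in 16.8%, 22.9% and 8.28% of tubule cells. Atf3, a stress-induced factor, was at 713, 806 and 475 CPM with a log2 ratio of 0.68 (1.04 without that barcode and 0.63 without the large barcodes), and Fos at 2052, 2251 and 1957 CPM. The heat shock genes Hspa1a and Hspa1b, near-identical copies whose reads may be split uncertainly, passed upwards with 381, 201 and 84.3 CPM and 169.7, 156 and 19.2 CPM. Hspa1a was at 98.8, 145 and 87.3 CPM without the large barcodes (log2 ratio 0.48) and no longer passed, while Hspa1b, at 53.2, 125 and 10.3 CPM, did. They rested on few cells: 17, 35 and 8 carried Hspa1a, and the shares of cells with a UMI at equal depth were 6.37%, 6.47% and 5.56%. In the transcription factor list 0 of 13 genes with 50 CPM or more passed the 2-fold rule upwards and 0 downwards, with a median log2 ratio of 0.23, and in the immediate early and heat shock list 2 of 17 genes with 50 CPM or more passed the 2-fold rule upwards and 0 downwards, with a median log2 ratio of 0.14.

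For survival, Mcl1, an inhibitor of apoptosis on which neutrophils depend, was at 2488, 2843 and 2279 CPM, and the near-identical copies Bcl2a1b and Bcl2a1d were at 477, 555 and 885 CPM and 213, 189 and 322 CPM, below WT in both Aoah-/- mice by less than 2-fold. The gene of this list that passed upwards was Xiap, with 84.9, 74.1 and 38.3 CPM, which did not pass without the large barcodes, at 71, 71 and 41.1 CPM. In the glycolysis and hypoxia list 1 of 14 genes with 50 CPM or more passed the 2-fold rule upwards and 0 downwards, with a median log2 ratio of 0.17. The gene that passed was Egln3, an oxygen-sensing hydroxylase, at 60.3, 43.8 and 15.3 CPM, and Gapdh was at 826, 876 and 935 CPM, Pkm at 464, 522 and 409.9 CPM and Slc16a3, a lactate exporter, at 511, 604 and 475 CPM. Ferritin was abundant, with Fth1 at 17332, 17828 and 14326 CPM and Ftl1 at 5739, 6254 and 5175 CPM, and in the iron list 8 of 9 tested genes lay above WT in both Aoah-/- mice, against 42.9% of all genes tested, with 1 past 2-fold (Ltf, which did not pass without the large barcodes). Slc7a11, the cystine transporter, was at 1022, 1322 and 889 CPM, against 10.7, 14.4 and 4.57 CPM in all other kept barcodes.

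Siglecf, a sialic acid receptor that marks eosinophils and a state of neutrophils described in injured tissue, was found in a minority of cells. Its level was 58.5 and 55 CPM in Aoah-/- mice 2 and 3 and 61.3 CPM in the WT mouse, and at equal depth a Siglecf UMI was found in 10.8%, 5.59% and 7.78% of neutrophils, with intervals of 6.88 to 15.9, 3.4 to 8.59 and 3.18 to 15.4, which overlap. In B and T cells the share was 0 in all 3 libraries. In a list of genes linked to that state 2 of 9 genes with 50 CPM or more passed the 2-fold rule upwards and 1 downwards, with a median log2 ratio of 0.31, the higher ones being Spp1, which is also a tubule gene, and Fnip2 at 83, 81.9 and 38.3 CPM. The lower one, Gpnmb, a glycoprotein of macrophages, was at 1.89, 32.5 and 57.5 CPM and rested on 1, 3 and 1 cells. It was at 0, 41.2 and 0 CPM without the large barcodes, so the call was lost and the direction turned. Of the immune checkpoint list, Cd274 (PD-L1) was at 123, 186 and 115 CPM and Lilrb4a, an inhibitory receptor, at 624, 680.1 and 391 CPM. None of its 10 tested genes passed 2-fold, and 7 lay above WT in both Aoah-/- mice, against 42.9% of all genes tested.

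Neutrophils held more Il1b than Ly6c2 monocytes and C1q macrophages of the same kidneys, the other myeloid classes compared. Il1b was at 10652, 11489 and 11028 CPM in neutrophils in the 3 libraries, 1276, 1291 and 1104 CPM in Ly6c2 monocytes (385, 511 and 187 cells) and 2331, 4085 and 4897 CPM in C1q macrophages (1561, 1056 and 642 cells). Neutrophils were thus above both in every library. Ptgs2 followed the same order, with 35, 69.2 and 61.9 CPM in monocytes and 488, 181 and 198 CPM in macrophages, and so did Il1rn, with 28.6, 29.6 and 24.6 CPM and 73.3, 102 and 84.4 CPM. Cxcl2 was at 106, 173 and 314 CPM in monocytes and 5571, 2729 and 3940.3 CPM in macrophages. C1q macrophages were higher than neutrophils in Tnf, at 299.9, 313 and 392 CPM, in Ccl4, at 2505, 5705 and 7941 CPM, and in Cxcl10, at 407, 300.4 and 407 CPM. Lyz2 (lysozyme) was at 8003, 8143 and 10997 CPM in monocytes and 11995, 8927 and 10326 CPM in macrophages, above the 2091, 1911 and 1899.9 CPM of neutrophils. The classes were cut by marker UMIs, C1qa, C1qb and C1qc for macrophages and Ly6c2 and Ccr2 for monocytes, so those genes and S100a8 and S100a9 are no finding between them. Their cells were deeper, with medians of 4228, 4656 and 4784 UMIs in monocytes and 5501, 4868 and 4516 in macrophages.

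**Figure D3:**
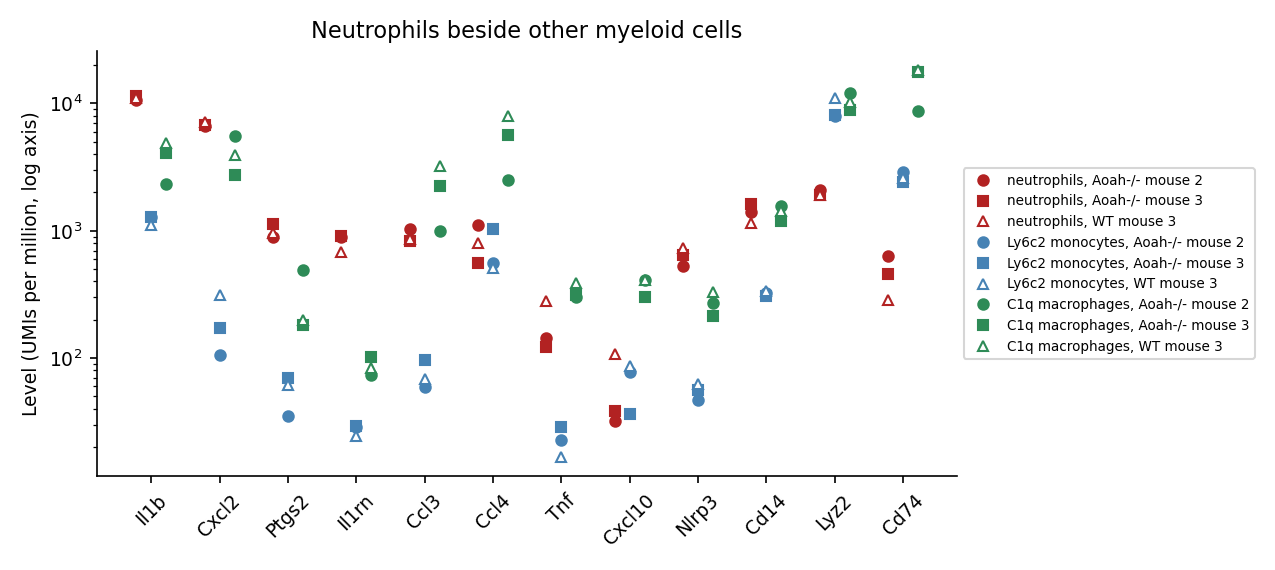
Levels of 12 genes in neutrophils, Ly6c2 monocytes and C1q macrophages, in CPM on a log axis, with 1 point per library (circle Aoah-/- mouse 2, square Aoah-/- mouse 3, open triangle WT). Il1b, Ptgs2, Il1rn and Nlrp3 are highest in neutrophils in each library, while Ccl4, Cxcl10 and Cd74 are highest in C1q macrophages.

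The 20 genes with the highest ratio to all other kept barcodes, taken as the lowest ratio of the 3 libraries and given as a description, were led after the rule genes by Ifitm1, Mmp9, Hdc, Slc7a11, Trem1, Hp and Il1r2. Ifitm1 was at 1675, 1732 and 1471 CPM, against 8.87, 13.7 and 6.08 CPM in all other kept barcodes. Trem1, a receptor that amplifies inflammation, was at 828, 851 and 705 CPM, against 7.86, 7.5 and 2.22 CPM in all other kept barcodes. Asprv1, a protease, was at 411, 444 and 559 CPM, against 1.4, 2.71 and 0.484 CPM in all other kept barcodes, and Wfdc21 at 413, 460.1 and 352 CPM, against 0.891, 1.51 and 0.734 CPM in all other kept barcodes. H2-Q10 and Stfa2l1 were also among them, but both belong to families of near-identical genes, so their reads are uncertain. Mxd1, Clec4d and Cd300lf closed the list, with Clec4d, a C-type lectin, at 1094, 1351 and 1088 CPM, against 27.4, 15.7 and 4.07 CPM in all other kept barcodes. Each of the 20 genes was at 100 CPM or more in the neutrophils of each library, as were 1087 genes in all.

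Between genotypes, gene levels in neutrophils were much alike. Over the 2701 genes with 50 CPM or more in the WT mouse or in the Aoah-/- mean, the median log2 ratio was 0.04. Pearson's r of log levels across these genes was 0.958 between the 2 Aoah-/- mice, 0.881 between Aoah-/- mouse 2 and WT and 0.906 between Aoah-/- mouse 3 and WT, where genes are not independent replicates and the WT library held the fewest neutrophil UMIs. By the 2-fold rule 114 genes (4.22%) were higher and 63 (2.33%) lower. Of 225 list genes tested, 17 (7.56%) were higher and 8 (3.56%) lower. Without the large barcodes, 8 of the 17 and 3 of the 8 still passed: Egln3, Fnip2, Hspa1b, Irf7, Itgax, Relb, Spp1 and Umod were higher, and Cxcl10, Ifi47 and Tnf lower. Over all neutrophils, Egln3, Fnip2, Hspa1b, Itgax, Relb, Cxcl10 and Ifi47 reached 50 CPM only in the group where they were higher. The minimum itself thus favoured a large ratio for these genes. Since there is 1 WT mouse, the spread between WT mice does not enter these counts.

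**Figure D4:**
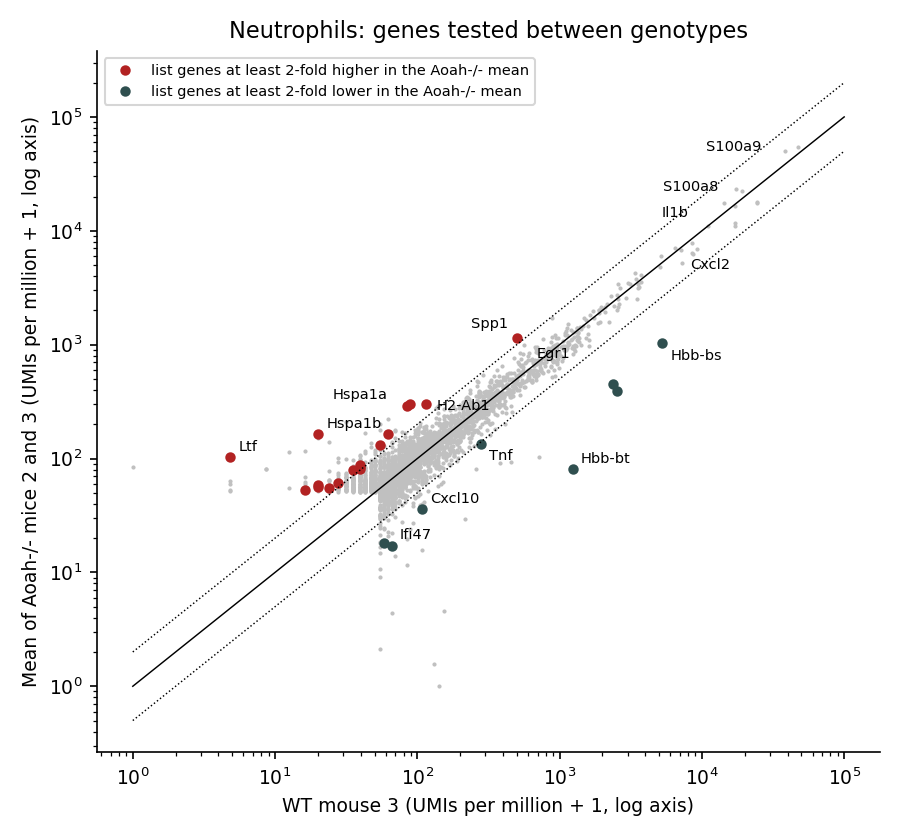
Level of each tested gene in neutrophils of the WT mouse (x) against the mean of the Aoah-/- mice (y), in CPM plus 1 on log axes, with a solid line at equality and dotted lines at 2-fold. Most of the 2701 genes lie between the dotted lines, and the hemoglobin genes below them rest on few barcodes.

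By size, 56 genes were higher and 90 lower with both Aoah-/- mice apart from WT by more than the gap between them and with counting intervals apart. The 12 with the largest rise were F10, Tpm3-rs7, Gm8730, Hspa1b, Errfi1, Igfbp7, S100a10, Timp3, Sfn, Xpo6, Tsc22d1 and Hilpda. Several rested in part on single barcodes: 1 cell held 57.8% of the Sfn UMIs of Aoah-/- mouse 2 and 1 cell 77.0% of those of Aoah-/- mouse 3 (12948 and 16809 UMIs in all), and 1 cell of Aoah-/- mouse 2 held 42.7% of its Igfbp7 UMIs and another 43.3% of its Hspa1b UMIs. F10, the gene of coagulation factor X, had 33, 55 and 1 UMIs in 17, 30 and 1 cells. Tpm3-rs7 and Gm8730 are related to other genes in sequence, so their reads are uncertain. These 3 leading genes, Hspa1b, Sfn, Xpo6, Tsc22d1 and Hilpda lay above WT in both Aoah-/- mice in all other kept barcodes too. Errfi1 (420, 451 and 618 CPM) and Timp3 (1113, 1193 and 1527 CPM) lay below WT in both there. For Igfbp7 and S100a10 the Aoah-/- mice lay on different sides of WT there. Of the 12, only Igfbp7, Timp3 and Hilpda reached 50 CPM in neutrophils of the WT mouse too. The minimum itself favoured a large ratio for the others. Hilpda, a lipid droplet protein induced by hypoxia, was at 189, 151 and 61.3 CPM in 19, 43 and 6 cells, against 55.6, 28 and 17 CPM in all other kept barcodes, and Xpo6, a nuclear export receptor for actin, at 109, 87.5 and 30.6 CPM in 50, 61 and 7 cells.

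The 12 with the largest fall were Hmx2, Slc26a4, Spink8, Insrr, Hbb-bt, Rhbg, Rhcg, Igfbp5, Atp6v1g3, Car12, Hba-a2 and Ociad2. Of these, only Hbb-bt, Atp6v1g3 and Hba-a2 reached 50 CPM in the Aoah-/- mean too. The minimum itself favoured a large fall for the others. All 34 WT UMIs of Slc26a4 (pendrin) and all 37 of Hmx2 came from the barcode with 25683 UMIs, as did 97.9% of those of Atp6v1g3, a subunit of the proton pump of intercalated cells. The barcode with 4666 UMIs held 96.0% of the WT UMIs of Hbb-bt and 93.8% of those of Hba-a2. In Aoah-/- mouse 3, 1 barcode held 71.2% of its Hba-a2 UMIs. Without the barcode with 25683 UMIs, Slc26a4 was at 0, 1.12 and 0 CPM and Atp6v1g3 at 33.9, 172 and 17 CPM, and without all members over 2 times the median UMIs Hba-a2 was at 32.9, 946 and 185 CPM.

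The same rule without the large barcodes, an alternative chosen after seeing the data, named a partly different set. Tpm3-rs7, F10, Hilpda and Xpo6 were among the 12 largest rises both ways. It found 37 higher and 48 lower genes. Akt2, a kinase of insulin signalling, led the higher ones with 53.2, 78.1 and 5.13 CPM in 20, 51 and 1 cells, followed by Tpm3-rs7, F10 and Rgs1, an inhibitor of chemokine receptor signalling, with 152, 85.2 and 10.3 CPM in 14, 28 and 2 cells. P4hb, Mt1, Hilpda, Xpo6, Umod and Osgin1 were among the others. Mt1, a metallothionein, was at 144, 112 and 30.8 CPM, and Osgin1, a stress-induced gene, at 175, 234 and 66.7 CPM. Of the 12 largest rises here, only Hilpda and Osgin1 reached 50 CPM in the WT mouse too. The minimum favoured a large ratio for the rest. The lower ones were led by S100a4 with 17.7, 22.7 and 123 CPM in 5, 11 and 5 cells and Ifi47 with 15.2, 17 and 87.3 CPM. Nr4a2 followed with 25.3, 36.9 and 133 CPM, but 2 WT cells held its UMIs. S100a4, Ifi47 and Nr4a2 reached 50 CPM in the WT mouse only, so the minimum favoured a low ratio for them. Plac8, at 150, 115 and 329 CPM, was carried by 28, 42 and 8 cells, so its WT level rested on few cells. Tnf, Dnaja1 and Irf1 were carried by more WT cells. Dnaja1, a cochaperone, was at 489, 514 and 1027 CPM in 93, 179 and 63 cells, a log2 ratio of -1.03 with an SD of 0.05, and was lower in both Aoah-/- mice in all other kept barcodes too (404, 427 and 608 CPM). Irf1, a transcription factor induced by interferon gamma, was at 182, 222 and 395 CPM in 52, 84 and 32 cells. Unlike Dnaja1, it lay above WT in both Aoah-/- mice in all other kept barcodes (114, 89.4 and 64.9 CPM). So did S100a4, Ifi47, Nr4a2, Plac8 and Tnf. Of the higher genes, Osgin1 lay below WT in both there (65.9, 54.6 and 128 CPM).

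Single neutrophils varied widely in each library. After thinning to 1672 UMIs the median cell held 17, 19 and 19 Il1b UMIs in the 3 libraries, with 89, 85 and 63 in the highest. Cxcl2 had a median of 6, 6 and 11 UMIs and a highest value of 149, 82 and 62, and S100a9 a median of 81, 80 and 67.5. Across the cells of each library, Spearman's rho of S100a8 and S100a9 was 0.84, 0.86 and 0.90, that of Il1b and Cxcl2 was 0.36, 0.26 and 0.39, and that of S100a8 and Il1b was 0.04, 0.08 and 0.00 (n = 204, 340 and 90 cells that share a library, with no test). The specific granule list had a median of 6, 5 and 6 UMIs and the cytokine list 36, 38 and 42.5, and rho between these lists was -0.21, -0.13 and -0.12, a weak relation in sparse counts. Before thinning, Ltf, Camp and Ngp were found in 18, 18 and 4 cells, and 1, 2 and 1 cells held 10 or more UMIs of them. After thinning they were found in 13, 15 and 3 cells, with 10, 121 and 7 UMIs in the highest. The 5 richest cells of Aoah-/- mouse 3 had Mmp8 at 3010 CPM and Lcn2 at 5973 CPM, against 215 and 731 CPM over all its neutrophils.

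**Figure D5:**
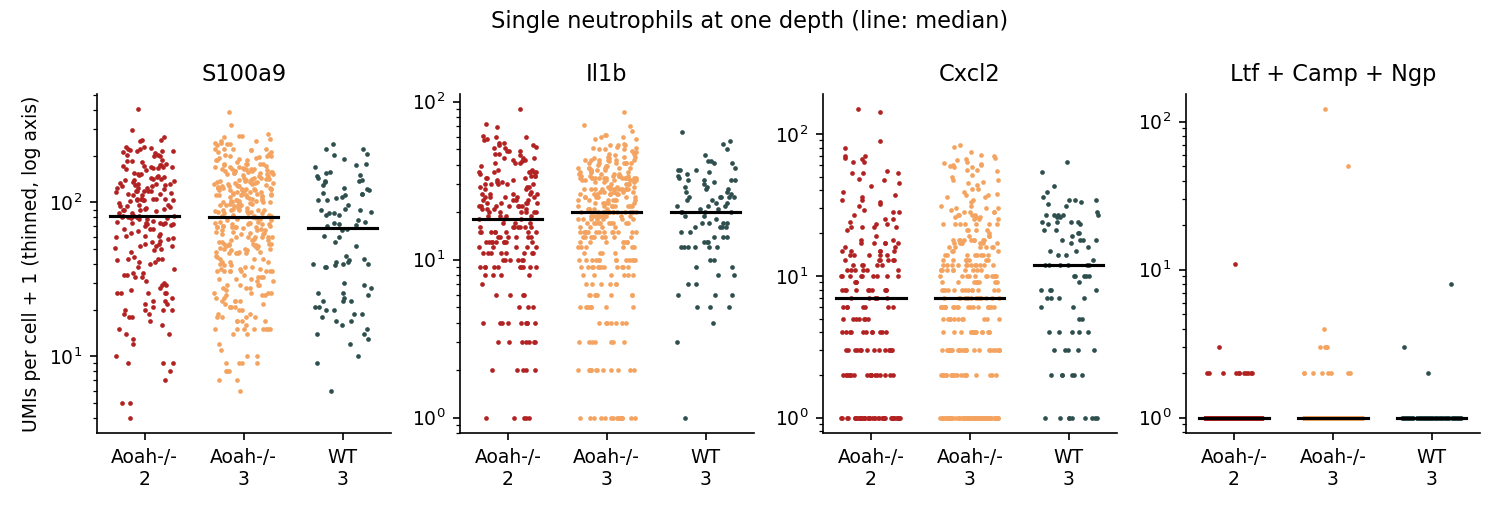
UMIs per neutrophil plus 1, after thinning each cell to 1672 UMIs, on a log axis, with 1 point per cell and a line at the median of each library. S100a9 and Il1b spread over similar ranges in the 3 libraries, the Cxcl2 median is 6, 6 and 11 UMIs, and few cells hold UMIs of Ltf, Camp and Ngp.

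Genes that attract or sustain neutrophils were read over the kept barcodes other than neutrophils. These barcodes include the 75, 104 and 12 left out by the limits on genes of other lineages. S100a9 was at 82.8, 145 and 31.2 CPM there, and the part of neutrophil RNA in the values below was not tested. Cxcl1 was at 185, 81.2 and 68.5 CPM in the 3 libraries, Cxcl2 at 695, 333 and 198 CPM and Cxcl5 at 5.5, 10.4 and 1.78 CPM, so both Aoah-/- mice lay above WT for these ligands of CXCR2, as they did for Cxcl3 (3.68, 5.33 and 1.39 CPM). Ppbp, another ligand of CXCR2, was highest in the WT mouse, at 0.255, 0.371 and 0.576 CPM. Neutrophils themselves gave 3.92%, 12.2% and 7.3% of the Cxcl2 UMIs of kept barcodes and 10.7%, 13.7% and 7.23% of those of Il1b. Csf3, the gene of G-CSF, was at 1.7, 0.471 and 0.184 CPM, and Il17a at 0.35, 3.36 and 4.46 CPM, the latter highest in the WT mouse.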

How the data were processed

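Kidneys of 3 mice, 1 library each, were profiled with the Chromium Single Cell 3′ v2 kit. For 27998 genes the authors deposited UMI counts per called barcode, not normalized. The submitters' processing notes name Cell Ranger 3.1.0, STAR, Seurat 4.2.0 and mm10, whereas the matrix headers name Cell Ranger 6.1.2. The libraries held 167222984, 161015021 and 158551992 UMIs.

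The members, gene lists and comparisons were chosen with earlier results of these data known. UMIs were summed per library over the neutrophils and given as CPM with exact Poisson 95% intervals, and shares with Clopper-Pearson 95% intervals (scipy 1.17.1). These cover counting error only. Ratios of the Aoah-/- mean over WT were taken as log2 with 1 CPM added. With 1 WT mouse no p-value is given. Thinning to 1672 UMIs was random (seed 1) and keeps every neutrophil. Genes named by size were the 20 with the highest ratio to other barcodes (10 CPM added, at least 100 CPM in each library), and the 12 largest rises and 12 largest falls in which both Aoah-/- mice lay apart from WT by more than their own gap and by counting interval. All members of 37 lists and Aoah could be named as well. Doublets were kept. Scrublet (scanpy 1.11.5, expected rate 0.08) found no threshold in Aoah-/- mouse 3 (0% marked) and marked 3.73% of kept barcodes in Aoah-/- mouse 2 and 1.40% in the WT library, so the highest 10% of scores were left out as an alternative instead. Libraries shared 172, 171 and 176 barcode sequences pairwise, and 1 neutrophil barcode was shared between Aoah-/- mouse 2 and the WT mouse. The counting steps were tested on simulated data. Gene positions are from GENCODE and promoters from RefSeq, both GRCm38. Promoter patterns were chosen with the sequences at hand, and more than 1 form of the NF-kB pattern was searched.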

Additional observations from a re-analysis of the deposited data

Results flagged for a closer look

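Of 8 list genes past 2-fold downwards in neutrophils, 4 lay above WT in both Aoah-/- mice in all other kept barcodes. This difference between cell types was not tested. The share of all tested genes with such a contrast is not given here. Several of the largest falls, Hmx2 and Slc26a4 among them, lay above WT in both Aoah-/- mice in the other barcodes too. The last of 3 values is WT. Tnf, the gene of tumor necrosis factor, had a log2 ratio of -1.05 in neutrophils (145, 123 and 279.6 CPM) and of 0.76 in all other kept barcodes (38.6, 31 and 20.1 CPM). Cxcl10, a chemokine induced by interferon, had a log2 ratio of -1.58 in neutrophils (32.1, 38.2 and 107 CPM) and of 0.49 in all other kept barcodes (87.2, 77.4 and 58.4 CPM). Ifi47, a GTPase induced by interferon gamma, had a log2 ratio of -1.95 in neutrophils (13.2, 19.1 and 65.1 CPM) and of 0.42 in all other kept barcodes (18.1, 18 and 13.2 CPM). Gpnmb, a glycoprotein of macrophages, had a log2 ratio of -1.68 in neutrophils (1.89, 32.5 and 57.5 CPM) and of 1.86 in all other kept barcodes (5.02, 24.8 and 3.37 CPM). The Gpnmb UMIs of neutrophils came from 1, 3 and 1 cells, and those of Tnf from 29, 54 and 28. Without the members over 2 times the median UMIs Gpnmb was at 0, 41.2 and 0 CPM in neutrophils, so its direction turned there (log2 ratio 4.43). Cxcl10, Ifi47 and Gpnmb reached 50 CPM in the WT mouse only, so the minimum itself favoured a low ratio for them. The other barcodes mix cell classes. In C1q macrophages, as given above, Tnf lay below WT in both Aoah-/- mice, and Cxcl10 did not lie above WT in both. Groups of 2 and 1 mice are too small to look for a mouse far from the others.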

How the results depend on the processing

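The share of neutrophils was higher in both Aoah-/- mice under every alternative run. The difference in percentage points was 1.31 with a mitochondrial limit of 20%, 0.178 with a floor of 3000 UMIs, 1.26 with no limits on genes of other lineages, 0.322 with limits of 0, and 0.643 to 1.05 with either Aoah-/- mouse left out. The 114 higher and 63 lower genes became 220 and 133 with limits of 0, 185 and 96 with every cell thinned, 449 and 247 with a minimum of 20 CPM, 35 and 28 with 100 CPM. The higher genes were 73 with 10 CPM added. The lower genes were 32 without the largest WT cell, 136 with a minimum of 20 S100a8 and S100a9 UMIs, and 103 with S100a8, S100a9, mitochondrial and tubule genes out of the total. With either Aoah-/- mouse left out there were 121 to 159 higher and 75 to 85 lower genes. Without the members over 2 times the median, 110 higher and 60 lower genes were found, of which 57 and 15 were among the genes found with them.

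The cause of the changes with limits of 0, thinning and the minimum of S100 UMIs was not tested. Fewer UMIs per gene let more genes past 2-fold at a minimum of 20 CPM by construction. Of 1350 alternative values of list and gene levels, 1211 kept their sign. Set against the SD between the 2 Aoah-/- mice, 851 differed from the main value by less. Another 462 differed by that SD or more, and 37 were values past 2-fold that turned. Those past 2-fold that turned, as log2 ratios, were as follows. Without the members over 2 times the median UMIs: erythroid list 1.66, Camp -2.85, Ngp -1.42, Slc26a4 0.77, Spink8 1.18, Hbb-bs 1.95, Hbb-bt 0.68, Hba-a1 1.53, Hba-a2 1.40, Insrr 0.77, Rhbg 0.77, Rhcg 0.18, Igfbp5 0.23, Ociad2 1.18, Gpnmb 4.43 and Ccr2 -0.039. Without the largest WT cell: Slc26a4 0.64, Spink8 2.19, Atp6v1g3 2.53, Insrr 1.09, Rhbg 2.13, Rhcg 1.14, Igfbp5 1.11 and Ociad2 3.18. With limits of 0: endothelial list -0.14, Hspa1a -0.053, Spink8 1.88, Rhcg 2.30, Igfbp5 0.56, Gpnmb 4.55 and Ccr2 -0.47. With a minimum of 20 S100 UMIs: Gpnmb 3.39 and Nr4a2 4.96. With thinned cells: azurophil granule list 0.86 and Gpnmb 0.079. With either Aoah-/- mouse left out, Camp ranged from -2.50 to 3.82 and Ngp from -0.32 to 1.82.

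Alternatives that thin the cells, leave out the largest WT cell or, for gene counts, other subsets of cells were chosen after seeing the data. Over 10 further random draws the difference in the share of cells with a Tnf UMI was -16.3 to -11.2 percentage points and with an Egr1 UMI 11.5 to 19.7, while that of Siglecf crossed 0 (-2.83 to 1.19). No paired analysis was possible because the groups share 1 replicate number and no test was made. Precision was limited by the 90 WT neutrophils: 3 of their UMIs equal 11.5 CPM, and most genes under 50 CPM could not be compared.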
